A study of Mus musculus with 26 samples.

Results

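The 3 Pim kinase genes of the mouse, Pim1, Pim2 and Pim3, were followed across 13 groups of embryonic stem cell and epiblast-like cell arrays. They are 3 of the 18193 genes that the array's annotation names, and 6 of its 34944 probe sets with a single gene symbol report on them. For each gene the probe set with the highest mean over the 26 arrays was taken, and the others served as a check. The genes were selected on these same arrays, Pim1 for a pattern said to follow STAT3 and Pim2 for its lower signal in cells with a Prdm14 transgene, so all differences of Pim1, and those of Pim2 that involve the transgene, are given as descriptions with no test.

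All cells were labelled C57BL/6 and male, and the stem cell cultures had a feeder layer of mouse embryonic fibroblasts, so feeder RNA could enter each stem cell sample. The AGP14 cells are labelled as Prdm14 knockouts that carry an Avitag-EGFP-Prdm14 transgene driven by the pPyCAG promoter. AGP14 cells were grown in serum medium without LIF, in serum medium with LIF at 1000 units/ml (called serum below) and in 2i. Cells labelled Prdm14 knockout (KO) and wild-type cells (WT) were grown in these media and also in serum with the MEK inhibitor PD0325901 at 0.4 uM. The serum media were applied for 2 days, while 2i is a serum-free medium with LIF, PD0325901 at 0.4 uM and the GSK3 inhibitor CHIR99021 at 3 uM. Epiblast-like cells (EpiLC), a stage that models the early epiblast, were taken at day 2 and day 3 from a separate line with intact Prdm14 and the Blimp1-mVenus and Stella-ECFP reporters. Where day 2 EpiLC are set against WT cells in 2i, stage, line and feeder RNA cannot be told apart. Each of the 13 groups has 2 arrays, and whether these came from separate cultures is not given in the labels, so the p-values reflect differences between arrays that may be technical. Within a line, same-numbered arrays deviated together across media (correlations of deviations 0.24 to 0.34 in AGP14, 0.398 to 0.62 in KO and 0.398 to 0.671 in WT). The fit used below does not model this sharing, also in comparisons between media, and a line block is among its alternatives.

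PIM proteins are serine/threonine kinases that are active once made, so that their activity follows their abundance closely. They are known for promoting cell survival, protein synthesis and cell cycle entry, in part through targets that they share with AKT. Cytokines that signal through JAK and STAT proteins induce Pim genes in blood cells, and in mouse stem cells LIF signals through STAT3 to sustain self-renewal, where Pim1 and Pim3 have been described as acting downstream of LIF.

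Array values are on a log scale whose base the labels do not state and which was inferred to be 2, so a difference is a log2 fold change. Array medians lay between 4.86 and 5.01. Signals for Prdm14 itself went against the labels in 2i and with MEK inhibitor. In 2i AGP14 arrays read 9.30 and 9.11, KO arrays 11.33 and 11.24, and WT arrays 8.95 and 9.40. With MEK inhibitor KO arrays read 10.60 and 10.87 and WT arrays 9.04 and 9.48 (difference 1.48, limma adjusted p = 0.0491). In serum the genotypes overlapped, with AGP14 at 6.42 and 6.33, KO at 5.40 and 6.47, and WT at 5.88 and 7.38. Without LIF KO arrays read 3.21 and 4.05, below AGP14 (5.12 and 4.86) and WT (4.28 and 5.17). KO minus WT passed in neither, -0.695 in serum (limma adjusted p = 0.389) and -1.095 without LIF (0.153). No source used here places its probes relative to the deleted part of the gene, so KO stands below for arrays labelled knockout. A spike-in control for poly-A labelling, lysX, split the arrays into 2 sets. It read 13.54 to 13.62 on the 12 arrays of KO and WT in 2i, KO and WT with MEK inhibitor and both EpiLC days. On the other 14 arrays it read 8.02 to 8.48. Comparisons of serum with 2i in KO and in WT, of MEK inhibitor with serum, and of AGP14 with KO or WT in 2i cross these sets, and for them the medium or genotype and the labelling set cannot be told apart. All other differences between 2 groups lie within a set. KO minus WT effects lie in 1 set in 2i and with MEK inhibitor, and in the other set in serum and without LIF. A change of that effect from 1 set of media to the other crosses the labelling sets as well.

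The promoters of the 3 genes are shown because the genes moved apart and their start regions differ in composition. Sequences are from RefSeq (GRCm38.p6) and run from 250 bases before to 50 bases after the start of each gene, and all 3 genes were matched. All 3 genes lie on the plus strand: Pim1 at chr17:29490535-29490834, Pim2 at chrX:7878056-7878355 and Pim3 at chr15:88861944-88862243. Capitals mark GC boxes (GGGCGG on either strand) in Pim1, octamers (ATGCAAAT on either strand), the element read by POU factors such as OCT4, in Pim2, and CCAAT boxes (ATTGG on this strand) in Pim3.
Pim1: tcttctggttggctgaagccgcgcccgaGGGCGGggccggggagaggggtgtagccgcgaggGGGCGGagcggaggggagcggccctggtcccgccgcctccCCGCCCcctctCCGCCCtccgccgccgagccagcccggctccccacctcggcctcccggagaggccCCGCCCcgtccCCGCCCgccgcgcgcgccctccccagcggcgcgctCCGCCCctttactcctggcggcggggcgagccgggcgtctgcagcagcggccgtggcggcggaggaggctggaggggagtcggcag
Pim2: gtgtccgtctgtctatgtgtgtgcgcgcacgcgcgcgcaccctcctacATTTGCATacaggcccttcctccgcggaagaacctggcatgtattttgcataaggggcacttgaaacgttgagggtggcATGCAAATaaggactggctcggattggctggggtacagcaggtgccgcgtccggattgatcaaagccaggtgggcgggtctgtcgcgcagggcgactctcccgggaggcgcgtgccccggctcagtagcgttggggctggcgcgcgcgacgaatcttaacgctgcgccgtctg
Pim3: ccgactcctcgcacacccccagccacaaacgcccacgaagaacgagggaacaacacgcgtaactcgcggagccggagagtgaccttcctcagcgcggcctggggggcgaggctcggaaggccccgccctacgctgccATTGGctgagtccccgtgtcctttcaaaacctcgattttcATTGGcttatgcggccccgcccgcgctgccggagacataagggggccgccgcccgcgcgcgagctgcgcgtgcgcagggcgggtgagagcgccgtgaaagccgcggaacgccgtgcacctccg
The Pim1 window was 81.3% G and C, more than 99.4% of the 32851 windows of this length, and held 42 CpG and 7 GC boxes. At least 1 GC box stood in 35.7% of windows, and 2 or more stood in 19.5%. A second Pim1 window, at chr17:29492835-29493134, was 49.0% G and C and held 1 E-box (CACGTG, in 7.15% of windows). The Pim2 window held 2 octamers, at positions -202 to -195 on the minus strand and -123 to -116 on the plus strand, counted from the start site. At least 1 octamer stood in 1.74% of windows, and 2 or more stood in 0.107%. The Pim2 window also held 1 GC box, at -52, and 1 CCAAT box, at -101, which are not in capitals. The Pim3 window held 2 CCAAT boxes, at -113 and -73, and 4 GC boxes. At least 1 CCAAT box stood in 37.4% of windows, and 2 or more stood in 11.7%. The STAT motif TTCNNNGAA (in 8.30% of windows) and the letters GGTCTCTAA (in 0.256% of windows), a motif described for PRDM14 in mouse stem cells, were in none of the 4 Pim windows on either strand, which says only that these letters are not in these windows.

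Group means of Pim2 spanned 4.97 log2 units, a wider span than 99.4% of genes. Those of Pim1 spanned 3.34 units (wider than 96.6% of genes) and those of Pim3 2.27 units (wider than 87.8%). The spread within groups was 0.147 for Pim1, 0.408 for Pim2 and 0.270 for Pim3 (SD pooled over the 13 groups). The 3 genes did not share an order of groups: Pim1 was highest in EpiLC of day 3 and lowest in KO cells in 2i, Pim2 was highest in EpiLC of day 2 and lowest in WT cells in 2i, and Pim3 was highest in AGP14 cells in serum and lowest in EpiLC of day 2. Their group means correlated weakly with each other over the 13 groups, which share arrays and lines (Pearson's r 0.374 for Pim1 with Pim2, 0.130 for Pim1 with Pim3 and -0.092 for Pim2 with Pim3, as descriptions). Over the 11 stem cell groups the same pairs had r of 0.173, 0.700 and 0.255. Pim1 and Pim3 thus ran more alike once the EpiLC groups were left out.

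**Figure D1:**
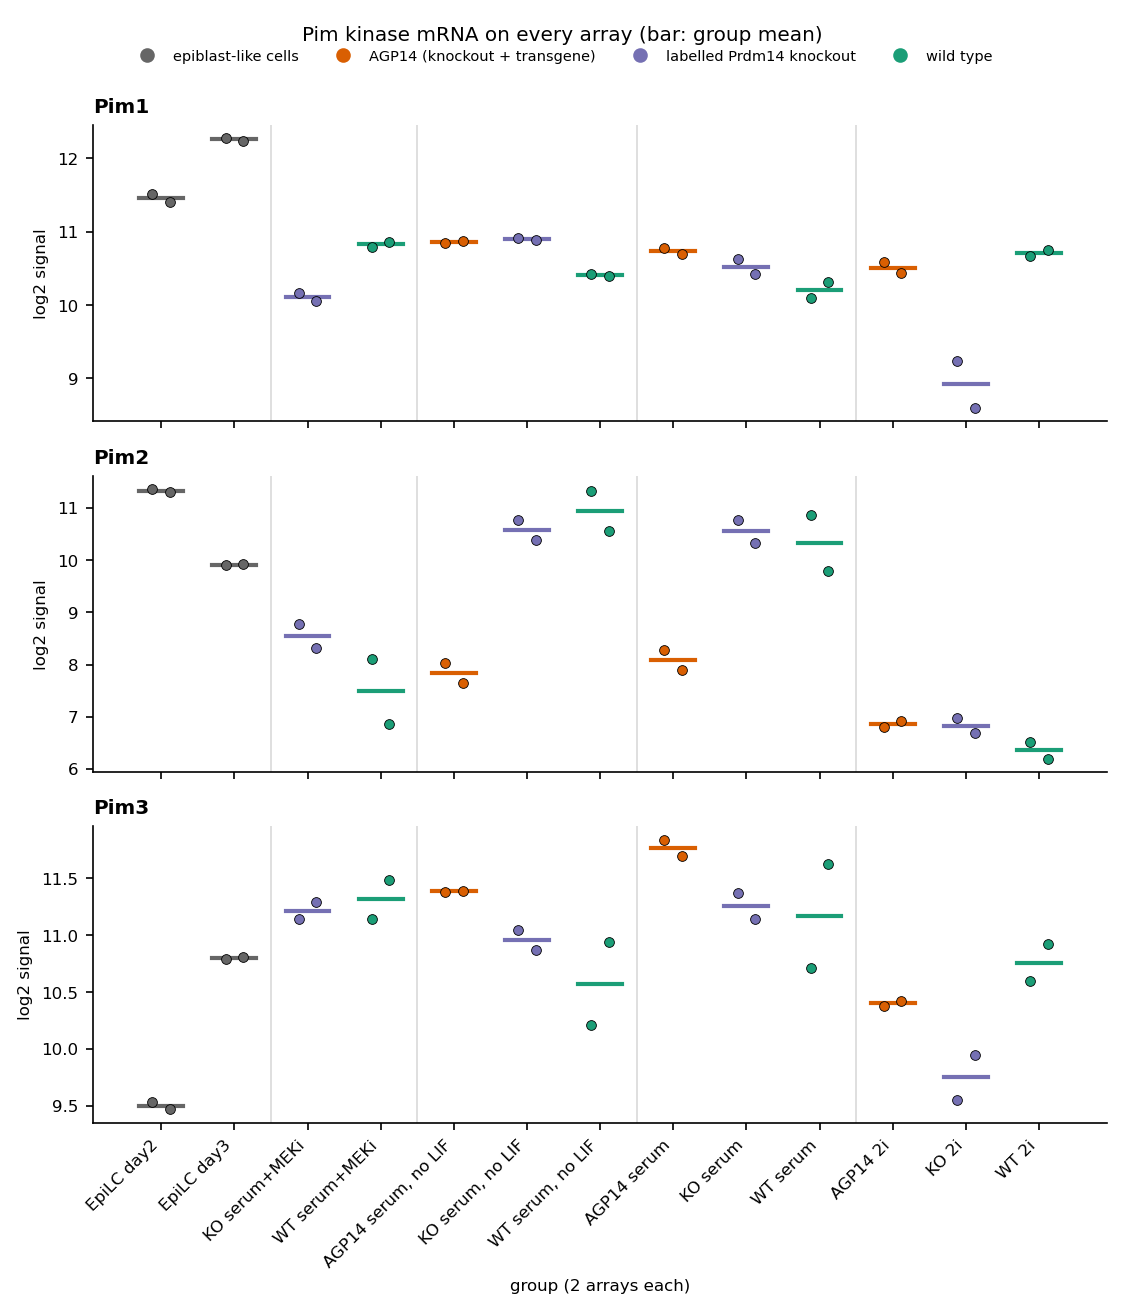
Log2 signal of Pim1, Pim2 and Pim3 on each of the 26 arrays, by group (points are arrays, bars are means of 2 arrays, each panel has its own axis). Pim2 lies between 6.20 and 6.97 on all 2i arrays and between 9.79 and 11.36 on KO and WT arrays in serum with or without LIF and in day 2 EpiLC, while AGP14 arrays in the serum media read 7.65 to 8.27.

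Pim1 encodes the founding member of the family. In 2i Pim1 read 10.58 and 10.44 on AGP14 arrays, 9.24 and 8.60 on KO arrays, and 10.67 and 10.75 on WT arrays. The KO arrays stood below all others of the series, with a difference of -1.79 log2 units from WT (3.46-fold), and AGP14 lay 1.59 units above KO in a comparison that crosses the labelling sets (0.66 on the further probe set). In serum the order turned: Pim1 read 10.78 and 10.70 on AGP14 arrays, 10.62 and 10.42 on KO arrays, and 10.10 and 10.32 on WT arrays, and KO lay 0.31 above WT with no overlap. Without LIF the values were 10.84 and 10.87 on AGP14 arrays, 10.91 and 10.89 on KO arrays, and 10.42 and 10.40 on WT arrays, so that KO lay 0.49 and AGP14 0.45 above WT. With MEK inhibitor, Pim1 read 10.16 and 10.06 on KO arrays and 10.79 and 10.86 on WT arrays, and KO again lay below WT, with a difference of -0.72. The shares of all genes that passed a test of KO minus WT were 9.15% in 2i, 4.17% in serum, 4.19% without LIF and 4.08% with MEK inhibitor, and nothing is read from them for Pim1. KO cells had less Pim1 signal than WT cells in both media that contain PD0325901 and more in both that do not. For these cells the media with PD0325901 are also those with high lysX, so inhibitor and labelling set cannot be told apart here. The further Pim1 probe set gave close values for the KO minus WT differences, -1.70 in 2i, 0.35 in serum, 0.46 without LIF and -0.72 with MEK inhibitor.

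Between media, Pim1 differences had opposite signs in KO and WT cells for serum against 2i and for MEK inhibitor against serum. Serum minus 2i was 1.60 in KO cells and -0.50 in WT cells, with 0.23 in AGP14 cells. MEK inhibitor minus serum was -0.41 in KO cells and 0.62 in WT cells. The further probe set gave the same directions for serum minus 2i, with other sizes (0.64 in KO and -1.41 in WT cells). For MEK inhibitor minus serum it gave 0.40 in KO cells, the opposite sign, and 1.46 in WT cells. These media comparisons of KO and WT cells cross the labelling sets. Within a set, MEK inhibitor minus 2i had the same sign in both, 1.19 in KO cells and 0.12 in WT cells. In EpiLC, Pim1 read 11.51 and 11.40 at day 2 and 12.27 and 12.24 at day 3, above all stem cell arrays, a difference of 0.75 between day 2 and WT cells in 2i and of 0.80 between day 3 and day 2. The further probe set placed day 2 EpiLC 0.17 above WT cells in 2i. On that set the day 2 arrays (9.34 and 9.49) overlapped those of WT cells in 2i (9.11 and 9.38) and with MEK inhibitor (9.14 and 9.46). In bulk RNA, fewer cells of a type and less RNA per cell cannot be told apart, here and below.

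Pim1 was selected as following STAT3, whose activity was not measured, and its values are given here beside those of Stat3 mRNA and of STAT3 targets. After removal of LIF, the Stat3 difference from serum was -0.60 in AGP14 cells (limma adjusted p = 0.0790, not passed), and Stat3 fell by 0.87 in KO cells (0.00248) and by 0.77 in WT cells (0.00765). Socs3, the feedback inhibitor of JAK and STAT signalling, fell by 2.48, 1.85 and 2.02 in AGP14, KO and WT cells (adjusted p = 7.18e-07, 1.37e-05 and 6.57e-06). Pim1 without LIF was 0.12, 0.38 and 0.20 above its serum value in AGP14, KO and WT cells, and the arrays of the paired groups did not overlap. The further Pim1 probe set gave -0.015, 0.29 and 0.175, so its sign turned in AGP14 cells. Of the 10 listed LIF-STAT3 targets, 3 fell in AGP14, 5 in KO and 6 in WT cells and none rose, with median differences of -0.70, -0.76 and -0.93 against 0.03, 0.00 and -0.02 over all genes. In these comparisons 0.302%, 1.1% and 1.5% of all genes passed in AGP14, KO and WT cells. Klf5, a pluripotency factor, fell in all 3 (by 0.80, 1.34 and 1.14), as did Bcl3, a coactivator of the NF-kB family (by 1.32, 0.94 and 1.84). Over the 13 groups, Pearson's r of Pim1 was -0.552 with Stat3 and -0.733 with Socs3, and over the 11 stem cell groups -0.196 and -0.436. In day 2 EpiLC, where Pim1 was high, the Stat3 difference from WT cells in 2i was -2.53 and that of Socs3 -3.88.

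**Figure D2:**
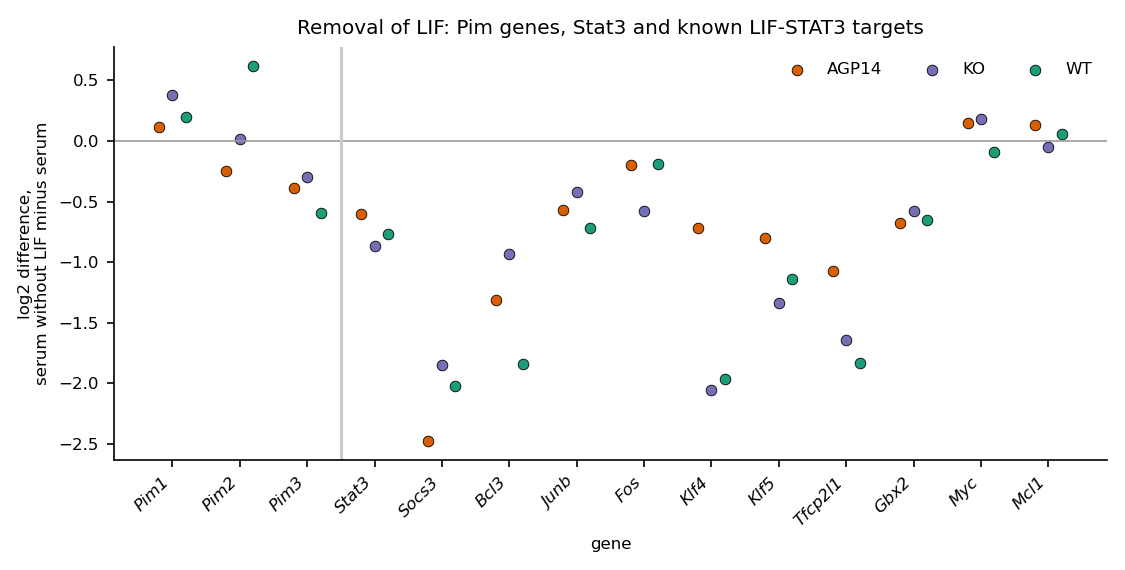
Log2 difference of serum without LIF minus serum for the 3 Pim genes, Stat3 and the 10 listed LIF-STAT3 targets, in AGP14, KO and WT cells (points, each a difference of means of 2 arrays). On this probe set Pim1 lies above 0 in all 3 genotypes (the further set reads -0.015 in AGP14 cells), while Stat3, Socs3, Bcl3 and Klf5 lie below 0 in all 3.

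**Figure D3:**
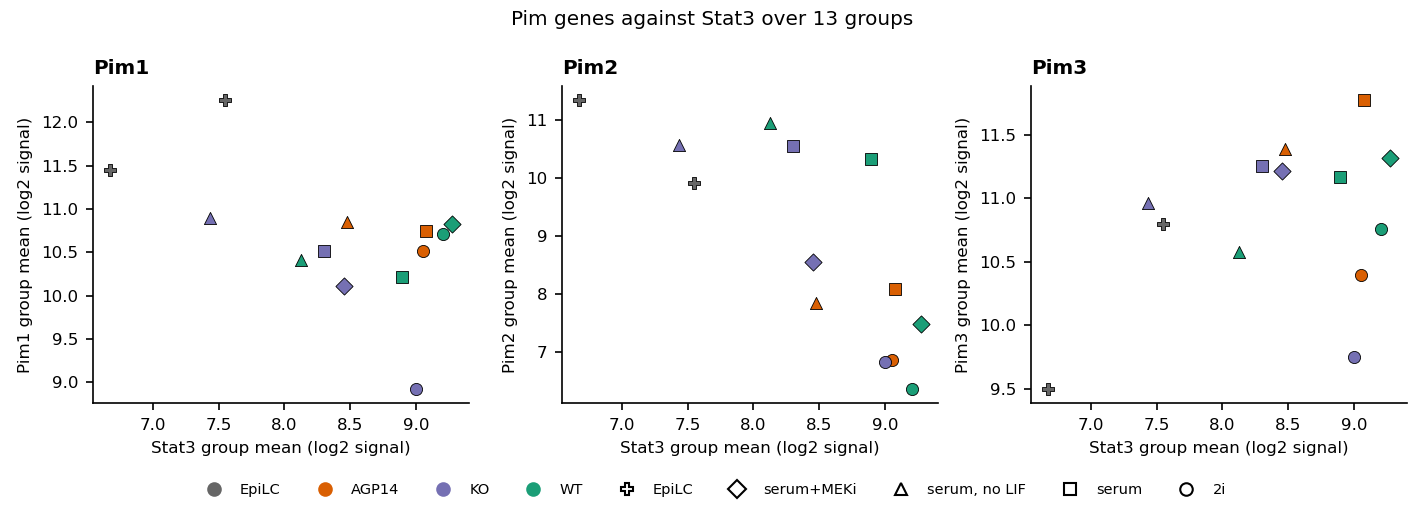
Group mean of each Pim gene against the group mean of Stat3 (log2 signal on both axes, 13 points a panel, colours for genotype and shapes for medium). Pim1 is lowest in KO cells in 2i, where the mean of Stat3 is 9.0, and highest in the 2 EpiLC groups, where Stat3 is lowest or among the lowest.

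Pim2 is encoded on the X chromosome and had 1 probe set. In 2i it read 6.80 and 6.92 on AGP14 arrays, 6.97 and 6.69 on KO arrays, and 6.52 and 6.20 on WT arrays. In serum it read 8.27 and 7.90 on AGP14 arrays, 10.77 and 10.33 on KO arrays, and 10.86 and 9.79 on WT arrays. Every serum array stood above every 2i array, and AGP14 stood apart below the other genotypes in serum. The difference of serum minus 2i was 3.72 ± 0.35 in KO cells (SE, n = 2 arrays a group, limma adjusted p = 1.52e-07) and 3.97 ± 0.35 in WT cells (adjusted p = 8.03e-08). In these comparisons 35.8% and 34.6% of all genes passed in KO and WT cells, so passing was common there. The Pim2 differences correspond to 13.2-fold in KO and 15.6-fold in WT cells. In AGP14 cells, whose arrays share a labelling set, the difference was 1.23, in a comparison in which 18.2% of genes passed.

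Pim2 was lower with the MEK inhibitor than in serum alone. With inhibitor it read 8.77 and 8.31 on KO arrays and 8.11 and 6.86 on WT arrays, all below the serum arrays of either genotype. The difference of MEK inhibitor minus serum was -2.01 ± 0.35 in KO cells (adjusted p = 3.28e-04, 24.5% of genes passed) and -2.84 ± 0.35 in WT cells (adjusted p = 1.06e-05, 25.4% of genes passed). Both cross the labelling sets. Within a set, MEK inhibitor in serum minus 2i was 1.71 ± 0.35 in KO cells (adjusted p = 0.00265, 13.2% passed) and 1.13 ± 0.35 in WT cells (adjusted p = 0.0424, 12.5% passed). The WT call was lost without WT MEK inhibitor replicate 1 (difference 0.50, adjusted p = 0.495) and without either WT 2i array (adjusted p = 0.0816 and 0.198).

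In day 2 EpiLC Pim2 read 11.36 and 11.30, its highest group, and at day 3 it read 9.90 and 9.92. The day 2 difference from WT cells in 2i was 4.97 ± 0.35 (adjusted p = 1.95e-09, 38.3% of genes passed). Day 3 minus day 2 was -1.42 ± 0.35 (adjusted p = 0.00760, 17.6% passed), with adjusted p = 0.0545 when day 2 replicate 1 was left out. In the same 2 comparisons Pim1 was higher, by 0.75 and 0.80.

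The transgene was the feature on which Pim2 was selected, and the values are given for what they show beside the medium. AGP14 minus KO was 0.03 in 2i, -2.47 in serum and -2.73 without LIF, in comparisons in which 24.2%, 10.5% and 13.3% of genes passed. AGP14 minus WT was 0.50, -2.24 and -3.11, in comparisons in which 25.4%, 6.96% and 10.7% of genes passed. Without LIF, Pim2 read 8.03 and 7.65 on AGP14 arrays, 10.76 and 10.38 on KO arrays, and 11.33 and 10.56 on WT arrays. The low AGP14 level in the serum media lay within the range of cells in serum with MEK inhibitor (6.86 to 8.77) and above that of 2i. The AGP14 minus WT value in serum depended on the WT array used, -1.71 without WT replicate 1 and -2.78 without WT replicate 2.

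No Pim2 difference of KO minus WT passed in the fit over all arrays. KO minus WT was 0.47 in 2i (95% interval -0.27 to 1.21, adjusted p = 0.509, 9.15% of genes passed), 0.23 in serum (-0.51 to 0.96, 0.801, 4.17% passed), -0.38 without LIF (-1.11 to 0.36, 0.652, 4.19% passed) and 1.06 with MEK inhibitor (0.32 to 1.79, 0.115, 4.08% passed). The last varied with the WT pair, 8.11 and 6.86, and without WT replicate 1 it was 1.68 (adjusted p = 0.0173). With the line as a random block its adjusted p was 0.0433. Removal of LIF gave 0.02 in KO cells (95% interval -0.72 to 0.76, adjusted p = 0.996) and 0.62 in WT cells (-0.12 to 1.36, 0.478), neither of which passed, and -0.25 in AGP14 cells. WT replicate 1 exceeded replicate 2 in all 4 media (by 0.32 in 2i, 1.07 in serum, 0.77 without LIF and 1.25 with MEK inhibitor). No difference between KO minus WT effects passed for Pim2: serum less 2i was -0.25 (adjusted p = 0.881, 2.97% of genes passed), without LIF less serum -0.60 (1.0, 0.0% of genes passed by limma, 654 had an unadjusted p under 0.05 and the alternatives passed 0 to 2) and MEK inhibitor less serum 0.83 (0.624, 0.231% passed).

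Markers of other cells moved with medium beside Pim2. The 17 measured feeder fibroblast markers of 18 listed had mean levels of 7.12 to 7.24 with MEK inhibitor, 6.05 to 6.77 without LIF, 6.04 to 6.44 in serum, 8.0 to 8.47 in 2i and 4.94 to 5.22 in EpiLC, and none was at 0. Of these, 11 fell and 1 rose in serum against 2i in AGP14 cells, and 12 fell in KO and 12 in WT cells (18.2%, 35.8% and 34.6% of all genes passed). With MEK inhibitor against serum, 11 rose in KO cells, and 12 rose and 1 fell in WT cells (24.5% and 25.4% of all genes passed). Between media, stem cells with higher feeder markers had lower Pim2, and EpiLC had low feeder marker levels and high Pim2. In AGP14 against KO cells in serum, 1 feeder marker fell and none rose (10.5% of all genes passed), while the median of the list was 0.34 (all genes -0.01). In AGP14 against WT cells, 3 rose in serum (median 0.58) and 10 without LIF (median 0.88), where Pim2 differed by -2.24 and -3.11. Of all genes, 6.96% and 10.7% passed there. In 2i, 6 feeder markers fell in AGP14 against KO cells and 7 against WT cells, and none rose (24.2% and 25.4% of all genes passed). There AGP14 minus KO was 1.59 for Pim1 and 0.65 for Pim3. The part of feeder RNA in the values of the Pim genes was not tested.

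Markers of cell state moved with Pim2 as well. All 4 epiblast-like markers (Fgf5, Otx2, Pou3f1 and Dnmt3b) rose in serum against 2i in AGP14, KO and WT cells (18.2%, 35.8% and 34.6% of all genes passed), and 3 of 4 fell in AGP14 against KO cells in serum (10.5%). Of 7 naive markers, 6 rose in AGP14 against KO cells in serum and all 7 did so without LIF (10.5% and 13.3% of all genes passed). Prdm14, the gene that the transgene carries, is 1 of the 7. Whether its probes read the transgene is not known here. Its rise without LIF (mean 4.99 in AGP14 and 3.63 in KO cells) is therefore not read for cell state. Tfcp2l1, a LIF-STAT3 target that sustains the naive state, ran opposite to Pim2 over the 13 groups (Pearson's r = -0.947) and lay 2.66 above KO in AGP14 cells in serum, while Myc, a growth regulator and PIM substrate, ran alongside it (r = 0.831).

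**Figure D4:**
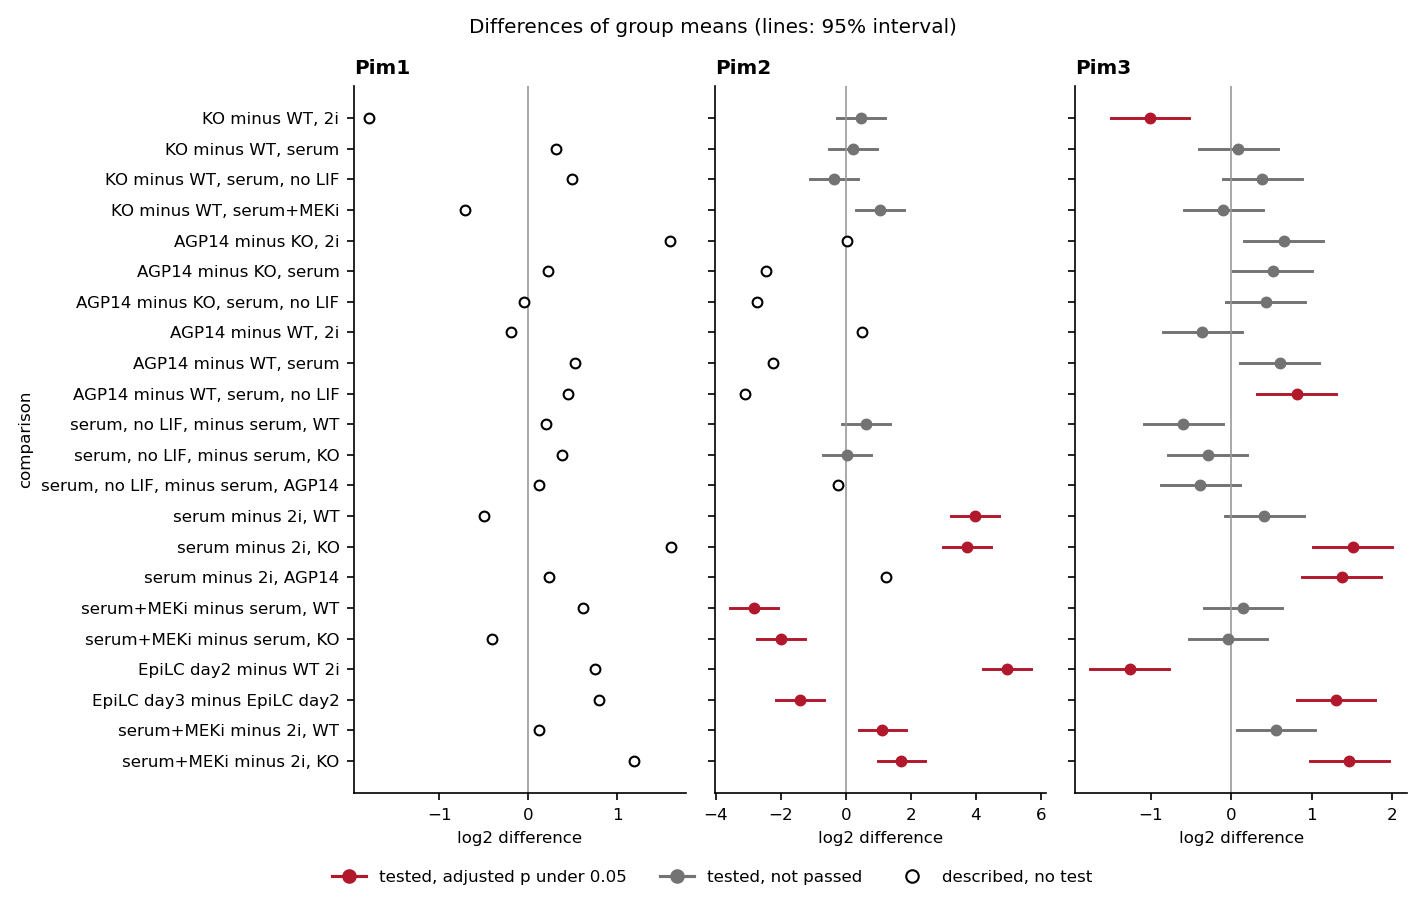
Log2 differences of group means for the 3 genes and 22 comparisons, first-named group minus second (filled points with 95% intervals are tested, red where the adjusted p was under 0.05, open points are descriptions with no test, each panel has its own axis). Pim2 has the widest range, from -3.11 for AGP14 minus WT without LIF to 4.97 for day 2 EpiLC minus WT in 2i.

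Pim3 encodes the remaining kinase of the family. Its selection named no pattern, so all 22 differences were tested, of which 5 were higher, 2 lower and 15 did not pass. Its brightest probe set carries a suffix that Affymetrix gives to sets with probes shared between transcripts. In 2i it read 10.38 and 10.42 on AGP14 arrays, 9.55 and 9.95 on KO arrays, and 10.60 and 10.92 on WT arrays. KO minus WT was -1.01 ± 0.23 (SE, limma adjusted p = 0.00931, 9.15% of genes passed), on the same side as Pim1, and a further probe set gave -0.86 (adjusted p = 0.0215). The call was lost without KO 2i replicate 1 (-0.81, adjusted p = 0.112) and without WT 2i replicate 2 (-0.85, adjusted p = 0.0699). AGP14 minus KO in 2i was 0.65 ± 0.23 with an adjusted p of 0.05, just short of passing, and -0.02 on the further probe set.

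In serum Pim3 read 11.84 and 11.70 on AGP14 arrays, 11.37 and 11.14 on KO arrays, and 10.71 and 11.63 on WT arrays. KO minus WT was 0.09 in serum (adjusted p = 0.899), 0.39 without LIF (0.427) and -0.10 with MEK inhibitor (0.924), none of which passed. Across the labelling sets, the KO minus WT effect in serum exceeded that in 2i by 1.10 ± 0.33. It did not pass in the fit over all arrays (adjusted p = 0.0869, 2.97% of genes passed). With the line as a random block it passed (0.0148). Without WT serum replicate 2 it was 1.56, with WT serum replicate 1 set against both WT arrays in 2i. AGP14 minus WT was 0.60 ± 0.23 in serum (adjusted p = 0.128), where leaving out WT replicate 2 gave 1.06 (0.00933). Without LIF, Pim3 read 11.38 and 11.39 on AGP14 arrays, 11.05 and 10.87 on KO arrays, and 10.21 and 10.94 on WT arrays. AGP14 lay 0.81 ± 0.23 above WT (adjusted p = 0.0325), a call lost without WT replicate 1 (0.45, adjusted p = 0.444) and without either AGP14 array (adjusted p = 0.135 and 0.145). In that comparison 10.7% of all genes passed. There, 10 of the 17 feeder markers were also higher in AGP14 than in WT cells, and their part in the value was not tested. Against KO, AGP14 was 0.52 higher in serum and 0.43 higher without LIF, neither passing (adjusted p = 0.189 and 0.276). On the serum arrays Pim3 and Pim2 thus lay on opposite sides of AGP14 minus KO, 0.52 against -2.47.

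Between media, Pim3 was higher in serum than in 2i by 1.37 ± 0.23 in AGP14 cells (adjusted p = 3.76e-04, 18.2% of genes passed) and 1.51 ± 0.23 in KO cells (4.53e-05, 35.8% passed). In WT cells the difference was 0.41 (adjusted p = 0.198), and without WT serum replicate 1 it was 0.87. WT replicate 1 minus replicate 2 was -0.32 in 2i, -0.92 in serum, -0.73 without LIF and -0.35 with MEK inhibitor. The 0.87 thus sets the higher serum replicate against both replicates in 2i. With MEK inhibitor Pim3 read 11.14 and 11.29 on KO arrays and 11.14 and 11.49 on WT arrays. The Pim3 differences of MEK inhibitor minus serum did not pass, -0.04 in KO cells (95% interval -0.53 to 0.45, adjusted p = 0.935) and 0.15 in WT cells (-0.34 to 0.63, 0.716), but a further probe set gave 0.73 (0.0247) and 0.84 (0.00972). Within a labelling set, MEK inhibitor in serum minus 2i was 1.47 ± 0.23 in KO cells (adjusted p = 2.88e-04, 13.2% of genes passed) and 0.56 in WT cells (0.141). Removal of LIF gave -0.39 in AGP14, -0.30 in KO and -0.60 in WT cells (adjusted p = 0.570, 0.724 and 0.246). These values had the same sign in all 3 genotypes but passed in none. Without WT serum replicate 1 the WT value was -1.06, which again sets the higher serum replicate against both replicates without LIF. The difference between the LIF effects of AGP14 and KO cells was -0.09 (adjusted p = 0.999, 0.077% of genes passed).

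In EpiLC Pim3 ran opposite to Pim2. It read 9.53 and 9.47 at day 2, its lowest group, and 10.79 and 10.81 at day 3. Day 2 minus WT cells in 2i was -1.26 ± 0.23 (adjusted p = 2.29e-04, 38.3% of genes passed), and day 3 lay 1.30 ± 0.23 above day 2 (adjusted p = 5.59e-04, 17.6% passed). The second probe set gave -1.32 and 1.25 (adjusted p = 1.08e-04 and 6.22e-04). Pim2 had 4.97 and -1.42 in these same comparisons, which share the day 2 arrays. Pim2 and Pim3 thus had opposite signs in both, and Pim1 was higher in both. The first comparison also sets a separate line against WT cells, with mean feeder marker levels of 4.94 in day 2 EpiLC and 8.47 in WT cells in 2i. The remaining Pim3 probe set was dim, with a mean of 4.74 near the array medians, and shared the sign of the brightest in 14 of 22 comparisons, against 19 of 22 for the second.

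Genes of the pathway around the kinases were followed from lists. Of 16 listed PIM substrates, 4 rose and none fell in KO against WT cells in 2i, where 9.15% of all genes passed: Myc (by 1.15), the transcription factor Foxo1 (0.69), the ubiquitin ligase component Skp2 (0.40) and the kinase Mark3 (0.29). With MEK inhibitor Foxo1 (0.65) and Skp2 (0.46) rose and none fell (4.08% of all genes passed), and in serum and without LIF none passed (4.17% and 4.19%). The medians were 0.01 in 2i, 0.14 in serum, 0.14 without LIF and 0.02 with MEK inhibitor, against -0.03, -0.02, -0.01 and -0.01 over all genes. In AGP14 against KO cells, 1 substrate rose and 2 fell in 2i, 2 rose and 1 fell in serum, and 2 rose and 1 fell without LIF (24.2%, 10.5% and 13.3% of all genes passed). The mitotic spindle protein Numa1 rose in serum (0.34) and without LIF (0.48). Foxo1 was lower in AGP14 than in KO cells in all 3 media, with differences of -1.0 in 2i (adjusted p = 3.49e-07), -0.58 in serum (2.89e-04) and -0.67 without LIF (3.88e-05). In serum against 2i, 3 substrates rose and 1 fell in AGP14 cells, 2 rose and 2 fell in KO cells, and 4 rose and 4 fell in WT cells (18.2%, 35.8% and 34.6% of all genes passed). Myc rose there by 1.69 in AGP14, 2.26 in KO and 3.55 in WT cells. Cdkn1a, a cell cycle inhibitor that PIM kinases phosphorylate, fell in serum against 2i by 1.11 in AGP14, 1.07 in KO and 1.42 in WT cells. On removal of LIF none of the 16 passed in any genotype, in comparisons in which 0.302%, 1.1% and 1.5% of all genes passed in AGP14, KO and WT cells.

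Of the 12 measured genes of 15 on the AKT and mTOR list, 3 fell in KO against WT cells in 2i, 1 in serum, 1 without LIF and 2 with MEK inhibitor, and none rose. In these comparisons 9.15%, 4.17%, 4.19% and 4.08% of all genes passed. Tcl1, a coactivator of AKT, was lower in KO than in WT cells in all 4 media, with differences of -1.42 in 2i, -1.83 in serum, -1.73 without LIF and -1.37 with MEK inhibitor (adjusted p = 0.00477, 0.00171, 0.00251 and 0.0121). AGP14 cells had 0.95 more than KO cells in 2i, 2.93 more in serum and 3.99 more without LIF (adjusted p = 0.0254, 6.75e-06 and 9.69e-08). In serum it was the reverse of Pim2, for which AGP14 minus KO was -2.47. Pdpk1, the kinase that activates AKT, was 0.55 higher in AGP14 than in KO cells in serum (1.42e-04) and 0.44 higher without LIF (6.47e-04), while in 2i the difference was -0.43 (4.25e-04), and it was the only other listed gene to pass in serum. In AGP14 against KO cells, 3 of the 12 rose and 4 fell in 2i, 2 rose and none fell in serum, and 2 rose and 1 fell without LIF. There 24.2%, 10.5% and 13.3% of all genes passed. For Akt1 in 2i, AGP14 minus KO was -0.47 (adjusted p = 0.0114) and KO minus WT was -0.51 (0.0164).

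The genes on either side of each Pim gene were compared with it. Of the 10 nearest neighbours of Pim2 in the RefSeq gene order, 8 were measured, and their AGP14 minus KO differences ran from -0.29 to 0.09 in serum and from -0.19 to 0.51 without LIF, against -2.47 and -2.73 for Pim2. In serum against 2i in WT cells the neighbours ran from 0.0 to 3.41 (median 0.49), against 3.97 for Pim2. There 6 of the 8 passed, in a comparison in which 34.6% of all genes passed. With MEK inhibitor against serum in WT cells 4 of the 8 passed (median -0.26, 25.4% of all genes passed). In day 2 EpiLC against WT cells in 2i 5 of the 8 passed (0.01 to 2.04, 38.3% of all genes passed). The highest in serum against 2i was Eras, which encodes a RAS-like protein of stem cells and lies 5 genes away. Eras fell by 1.5 with MEK inhibitor against serum in WT cells (adjusted p = 0.00109), where Pim2 fell by 2.84, but did not share the AGP14 difference in serum (-0.25, adjusted p = 0.697). Of 10 neighbours each, 4 of Pim1 and 6 of Pim3 were measured, and KO minus WT in 2i ran from 0.12 to 0.71 and from -1.20 to 0.20. None of them passed, where 9.15% of all genes did.

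Among genes whose group means span at least 1 log2 unit, those most like each Pim gene over the 13 groups differed between the 3. For Pim1 they were Mfng (Pearson's r = 0.944), which modifies Notch receptors, Paip2b (0.941), Ccdc88c (0.938), Gfer (0.905) and Atp6v0e2 (0.902), and the most opposite were Cdc42ep3 (-0.912), Wbp1l (-0.906) and Olfml1 (-0.891). For Pim2 they were the carbonic anhydrase Car2 (0.958), the cadherin Cdh10 (0.950), Mdfi (0.947), Mtcl1 (0.945) and Spag16 (0.943), with Nhsl1 (-0.968), Fam76a (-0.963) and Plekhh1 (-0.961) the most opposite. For Pim3 they were Frat1 (0.914), which binds GSK3, Tcp11l2 (0.902), Synpo2l (0.871), Sox8 (0.867) and Dppa3 (0.855), a germ cell and naive state gene, with Fam13a (-0.839), 2610507I01Rik (-0.827) and Mptx1 (-0.796) the most opposite. These are descriptions over groups that share lines and arrays.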

How the data were processed

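RNA of 26 samples in 13 groups of 2 was measured on Affymetrix mouse expression arrays, after biotin labelling per the labels' protocols. The deposited table holds log2 values that the authors made from the scanned arrays for 45100 probe sets, with the base inferred from their range (highest 13.89). How they were normalized is not given in the sources used. The values were used as deposited, without further scaling. Of the probe sets, 34944 have 1 gene symbol in the platform annotation, 932 several and 9160 none, and 64 are controls. Each of 18193 genes was taken by its probe set with the highest mean. Array signal and the number of arrays limit the precision, and no read depth applies.

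Differences were fitted with limma 3.58.1 in R 4.3.3, with 1 coefficient per group over all 26 arrays, an intensity trend and Benjamini-Hochberg adjustment over all genes of a comparison (two-sided, passed under 0.05; 13 residual degrees of freedom). Tables were handled with pandas 2.3.3 and numpy 2.4.6 (Python 3.11.15), plots with matplotlib 3.10.9, and the fit was tested on simulated data. The named genes are the members, Prdm14, Stat3, listed genes, 5 neighbours on each side, and the 5 most and 3 least alike genes by Pearson's r of group means. The members and lists were chosen with earlier results of these data known. Alternatives were quantile scaling, no dim probe sets, no intensity trend, the mean of probe sets, the compared groups alone, replicate and line blocks, and leaving out each array. The comparisons of MEK inhibitor with 2i, and each further probe set, were added after seeing the data.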

Additional observations from a re-analysis of the deposited data

Results flagged for a closer look

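Some effects lay on opposite sides of 0 on all arrays of 2 media, and none of these differences between media was tested. For Pim1, KO minus WT in serum exceeded that in 2i by 2.10, and without LIF it exceeded that in 2i by 2.28. With MEK inhibitor it differed from that in serum by -1.025 and from that without LIF by -1.205. For Pim1, AGP14 minus KO without LIF differed from that in 2i by -1.635 and from that in serum by -0.265. Both rest on a difference of -0.045 without LIF, for which the further Pim1 probe set gave 0.06 with overlapping arrays, so the sign did not turn on that set. AGP14 minus WT of Pim1 was higher in serum than in 2i by 0.73, and higher without LIF than in 2i by 0.645. For Pim2, AGP14 minus WT differed from that in 2i by -2.74 in serum and by -3.605 without LIF. For Pim3 the same differences were 0.96 and 1.17. The AGP14 comparisons in 2i cross the labelling sets. Each KO minus WT effect lies within a set, but those in 2i and with MEK inhibitor lie in the other set from those in serum and without LIF. The differences between KO minus WT effects given here thus cross the sets too.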

How the results depend on the processing

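Of 553 alternatives to tested values of Pim2 and Pim3, 504 kept direction and side of the threshold, 19 lost the call, 26 gained it and 4 reversed. Of 352 alternatives to described differences, 324 stayed within the spread between replicates, 27 moved and 1 reversed. The cause was not tested. Leaving out single arrays, Pim1 differences ran from -2.11 to -1.47 for KO minus WT in 2i, 1.27 to 1.91 for AGP14 minus KO in 2i, 1.28 to 1.92 for serum minus 2i in KO, and 0.87 to 1.51 for MEK inhibitor minus 2i in KO cells. With the mean of both Pim1 probe sets, and with the further set alone, they were 1.125 and 0.66 for AGP14 minus KO in 2i, -0.6175 and -1.035 for AGP14 minus WT in 2i, -0.9525 and -1.405 for serum minus 2i in WT, 1.1175 and 0.635 in KO, 1.0375 and 1.46 for MEK inhibitor minus serum in WT, -0.005 and 0.40 in KO, 0.4575 and 0.17 for day 2 EpiLC minus WT in 2i, and 1.035 and 1.27 for day 3 minus day 2. The further set alone also moved AGP14 minus WT in serum (0.71) and MEK inhibitor minus 2i in KO (1.035). AGP14 minus WT of Pim2 in serum ran from -2.775 to -1.705 without single arrays. Adjusted p-values of Pim2 from limma without single arrays ran from 0.01729 to 0.6554 for KO minus WT with MEK inhibitor, 0.04456 to 0.05453 for day 3 minus day 2, and 0.004561 to 0.4954 for MEK inhibitor minus 2i in WT. KO minus WT with MEK inhibitor had 0.01368 with the replicate block and 0.04329 with the line as a random block. Replicate numbers were only shared labels between genotypes (correlations of deviations -0.102 to 0.147), though they deviated together within KO and WT lines (0.398 to 0.671) and within AGP14 (0.24 to 0.34). MEK inhibitor minus 2i in WT had 0.05463 with the mean of probe sets, 0.08262 without trend and 0.255 with the compared groups alone. For Pim3, adjusted p-values without single arrays ran from 0.01374 to 0.112 for KO minus WT in 2i, 0.04573 to 0.311 for AGP14 minus KO in 2i, 0.009334 to 0.855 for AGP14 minus WT in serum, 0.006361 to 0.4436 without LIF, 0.01836 to 0.9257 for LIF removal in WT, 0.00668 to 0.9004 for serum minus 2i in WT, and 0.01115 to 0.2982 for KO minus WT in serum less 2i. The last had 0.0487 with the replicate block and 0.01478 with the line block. AGP14 minus KO of Pim3 in 2i had 0.02792 with quantile scaling, 0.041 without dim probe sets, 0.02923 with the replicate block, 0.02474 with the line block and 0.03082 with the compared groups alone. That last model gave 0.1331 for KO minus WT in 2i, 0.0248 and 0.01005 for AGP14 minus KO in serum and without LIF, 0.09759 for AGP14 minus WT without LIF, and 0.01393 for LIF removal in AGP14. AGP14 minus WT without LIF had 0.07203 without trend. MEK inhibitor minus serum and minus 2i in WT had 0.004014 and 0.002349 with the mean of probe sets, and the second 0.041 with the line block. The second Pim3 probe set gave 0.007633 and 0.04816 for AGP14 minus WT in 2i and serum, 0.009717 for MEK inhibitor minus serum in WT and 0.02468, reversed, in KO. The dim remaining set gave 0.7282, reversed, for KO minus WT in 2i and for day 2 EpiLC minus WT in 2i, 0.8456, reversed, for day 3 minus day 2, 0.376 for AGP14 minus WT without LIF, 1.0 and 0.5151 for serum minus 2i in KO and AGP14, 0.02082 for MEK inhibitor minus serum in WT, and 0.01035 and 0.259 for MEK inhibitor minus 2i in WT and KO. The numbers of genes past the threshold, with their range over all alternatives, for KO minus WT were 1665 (25 to 1958) in 2i, 759 (2 to 1050) in serum, 763 (20 to 1023) without LIF and 742 (21 to 931) with MEK inhibitor. For AGP14 minus KO they were 4401 (2858 to 4731) in 2i, 1912 (882 to 2258) in serum and 2421 (1290 to 2720) without LIF, and for AGP14 minus WT 4614 (2807 to 4960), 1267 (153 to 1692) and 1941 (462 to 2371). In AGP14, KO and WT cells, LIF removal had 55 (5 to 518), 200 (9 to 474) and 273 (0 to 755), and serum minus 2i 3309 (1735 to 4517), 6506 (4934 to 7464) and 6286 (3664 to 7292). In KO and WT cells, MEK inhibitor minus serum had 4461 (2602 to 5557) and 4630 (1822 to 5829), and minus 2i 2401 (472 to 3409) and 2277 (273 to 3330). Day 3 minus day 2 had 3198 (2042 to 4316), and KO minus WT in serum less 2i 541 (15 to 1217).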
